A study of Homo sapiens with 6 samples.

Results

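The genes described here are 10 transcriptional targets of the RAF, MEK and ERK kinase cascade that restrain or relay it: the phosphatase genes DUSP4, DUSP5 and DUSP6, the Sprouty genes SPRY1, SPRY2 and SPRY4, the Sprouty-related genes SPRED1 and SPRED2, and the transcription factor genes ETV4 and ETV5. They were taken by symbol from a count table of 25343 gene rows, in which each of the 10 had a row, and 10 of 10 passed the filter on low counts. The cells were parental A375, an established line from a human melanoma that is known to carry an activating BRAF mutation, so that its ERK pathway is driven from within. Of 6 libraries, 3 came from cells given 50 nM panobinostat, an inhibitor of histone deacetylases, for 24 h, and 3 from cells given an equal volume of PBS (0 nM, vehicle). The comparison asks how RNA levels differed after treatment, at this dose and time and in this line. Whether the libraries of a group were separate cultures is not in the labels. The p-values therefore reflect only library-to-library spread, which may be technical.

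ERK, once phosphorylated by MEK, acts on nuclear factors that switch on its own inhibitors. DUSP4 and DUSP5 are nuclear phosphatases and DUSP6 is a cytoplasmic one; all 3 dephosphorylate ERK, and DUSP5 and DUSP6 are known for their preference for it. Sprouty proteins act at the level of growth factor receptors, RAS and RAF, and SPRED proteins bring the RAS inhibitor neurofibromin to the membrane. ETV4 and ETV5 are ETS factors of the PEA3 group that carry the ERK signal to further genes. In BRAF-mutant melanoma such transcripts are commonly read as a gauge of ERK output. The table holds RNA counts and no measure of ERK phosphorylation.

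The Sprouty genes are shown first as sequence, because these close relatives changed in opposite directions. RefSeq promoter entries (build GRCh38.p14), taken by symbol, were used for 6 of the 10 members (DUSP6, SPRY1, SPRY2, SPRY4, SPRED1 and SPRED2). These had 10 annotated starts among them. None was used for DUSP4, DUSP5, ETV4 or ETV5. The 250 bases before a start are printed 5′ to 3′ on the gene's strand. Capitals mark matches, on either strand, to the ETS core CCGGAA or the GC box GGGCGG. The regions are chr4:123398136-123398385 on the plus strand for SPRY1 (the second of its annotated starts), chr13:80341127-80341376 on the minus strand for SPRY2 (the first of its starts) and chr5:142324248-142324497 on the minus strand for SPRY4.
SPRY1: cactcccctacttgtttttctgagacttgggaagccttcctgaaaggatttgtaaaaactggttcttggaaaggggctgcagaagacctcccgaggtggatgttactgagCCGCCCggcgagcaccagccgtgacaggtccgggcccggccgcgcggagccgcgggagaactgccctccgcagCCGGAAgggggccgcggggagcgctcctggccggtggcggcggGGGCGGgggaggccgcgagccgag
SPRY2: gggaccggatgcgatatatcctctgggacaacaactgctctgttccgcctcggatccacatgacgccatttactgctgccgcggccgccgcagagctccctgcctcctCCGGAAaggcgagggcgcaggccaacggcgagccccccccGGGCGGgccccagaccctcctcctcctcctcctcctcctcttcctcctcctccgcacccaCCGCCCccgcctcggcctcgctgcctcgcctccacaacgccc
SPRY4: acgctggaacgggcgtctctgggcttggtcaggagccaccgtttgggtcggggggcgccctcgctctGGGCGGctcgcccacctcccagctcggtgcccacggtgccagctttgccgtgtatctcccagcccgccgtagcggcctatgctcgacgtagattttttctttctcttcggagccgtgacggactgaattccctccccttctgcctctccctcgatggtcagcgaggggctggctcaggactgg
The printed stretches of SPRY1 and SPRY2 each held 1 ETS core and 2 GC boxes, and that of SPRY4 held 1 GC box. The other start of SPRY1 and the other 2 starts of SPRY2 held no match. Matches were found at 4 of the 10 starts, the remaining one being a GC box of SPRED1. The AP-1 motif TGANTCA, the cyclic AMP response element TGACGTNA and the CIC motif TGAATGNA, searched on both strands, had no match at any of the 10 starts. Among all 35116 RefSeq promoter stretches of that length, 14.5% held the ETS core, 42.6% the GC box, 6.6% the AP-1 motif, 2.7% the cyclic AMP element and 3.2% the CIC motif. No match overlapped another in the printed stretches. A match describes the letters only.

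Totals were 32293283 to 38944399 counts per library, so that 3 counts equal 0.0774 to 0.0928 CPM, counts scaled to a common library size. Levels are CPM on library sizes scaled by TMM, the trimmed mean method of edgeR. Differences are log2 fold changes ± SE from the quasi-likelihood test of edgeR, with p-values adjusted by the Benjamini-Hochberg method over 15499 genes. In bulk RNA, fewer cells with a transcript and less RNA per cell cannot be told apart, and the spike-in rows, at 0 counts, gave no absolute scale. The libraries numbered 3 stood farthest from the others of their group. Compared by chi-square over degrees of freedom, vehicle libraries 1 and 2 gave 2.41, and each against vehicle library 3 gave 9.595 and 5.94. Panobinostat libraries 1 and 2 gave 1.955, and each against panobinostat library 3 gave 5.295 and 5.75. Of the melanoma markers, S100B went from 71.9 ± 0.877 CPM in vehicle to 11.4 ± 0.575 CPM (SD, n = 3), and SOX10 and ERBB3 were detected in all 6 libraries and fell. Of the pigment cell markers, PMEL rose, DCT had 12 counts over the vehicle and 31 over the panobinostat libraries, and MLANA and TYR had 0 counts in all 6. SOX10, ERBB3 and PMEL share exon bases with other genes and are named without values. The 9 melanoma markers summed to 1992 to 2139 CPM in vehicle and 760 to 834 CPM with panobinostat. SOX10 and ERBB3 together made up most of that sum in both groups. Markers of other cell types moved as well. The 5 fibroblast markers summed to 12.0 to 12.7 CPM in vehicle and 69.3 to 71.8 CPM with panobinostat, and the 5 epithelial markers to 157 to 164 and 295 to 312 CPM. The 4 endothelial markers summed to 9.06 to 10.4 and 18.4 to 18.8 CPM, and the 5 blood markers to 4.96 to 6.17 and 3.58 to 3.90 CPM. Most of the endothelial sum was KDR, most of the blood sum was LYZ and most of the epithelial sum was KRT18. Most of the fibroblast sum was PDGFRA in vehicle, a gene that fell, and COL1A1 with panobinostat, a gene that rose. Members of these lists ranged from none to many counts. The blood cell marker PTPRC had 0 counts over the vehicle and 4 over the panobinostat libraries, and the epithelial marker CDH1 had 0 and 7. The keratin gene KRT14 had 356 and 82 counts, and KRT18, a keratin gene that rose, and LYZ, a blood marker that fell, were detected in all 6 libraries and share exon bases with other genes. Of the markers tested, 1 of 6 for melanoma, 4 of 5 for fibroblasts, 2 of 3 for epithelium, 3 of 3 for endothelium and 1 of 2 for blood rose, and the remaining ones fell. The shares over all genes tested were 41.8% higher and 41.0% lower. The part of these markers in the results below was not tested.

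The 10 genes did not move as a block. With panobinostat 5 rose (DUSP4, DUSP5, DUSP6, SPRY1 and SPRED2), 4 fell (SPRY2, SPRY4, ETV4 and ETV5) and SPRED1 did not pass the threshold of an adjusted p of 0.05. Among all genes tested 41.8% rose and 41.0% fell, 82.8% in all, so 9 of 10 is near the background. The fall of ETV4 depended on the scaling, the filter, the replicate block and single libraries, as given below, and kept its call in 6 of 15 alternatives. The median log2 fold change was 0.36 over the 10 genes and 0.01 over all genes tested. DUSP4 and DUSP5 rose at least 2-fold, as did 18.9% of all genes, and SPRY4 fell at least 2-fold, as did 11.7% of all genes. The 3 libraries of each group did not overlap for 8 of the 10 genes, all but SPRED1 and ETV4, against 83.4% of all genes tested. Without both libraries numbered 3, 6 rose and 4 fell, the added rise being that of SPRED1.

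**Figure D1:**
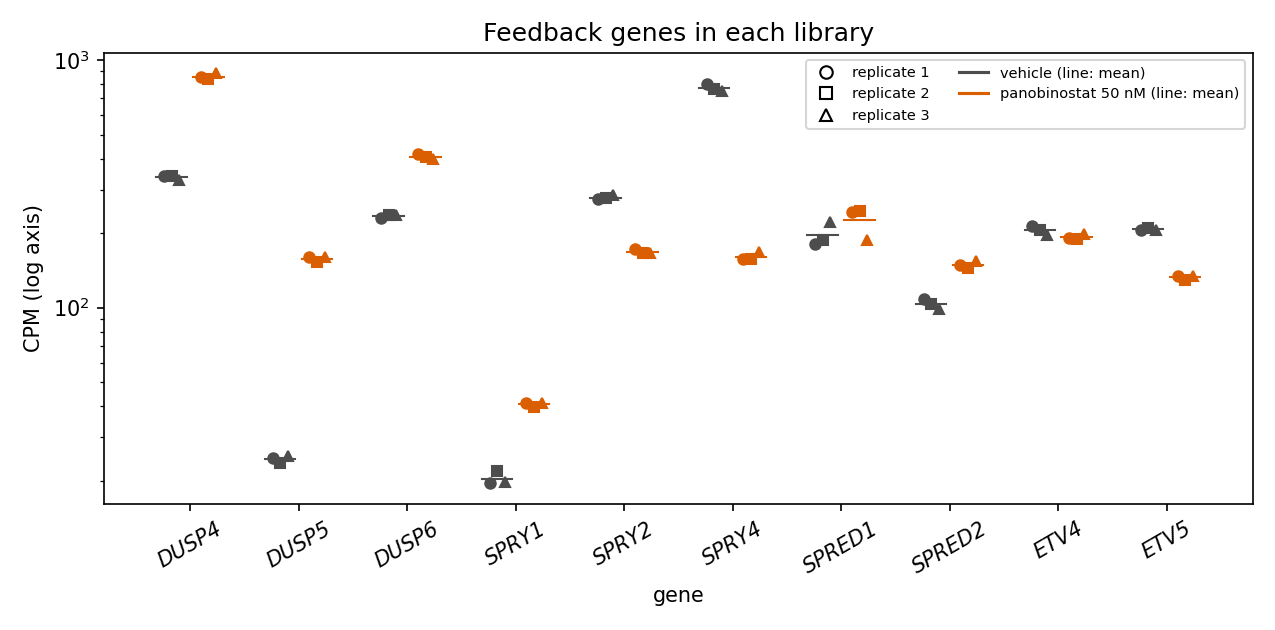
CPM (log axis) of each feedback gene in each of the 6 libraries, vehicle in grey and 50 nM panobinostat in orange, with a line at each group's mean and a symbol for each replicate number. The groups are apart for 8 genes, and SPRED1 has its highest vehicle value and its lowest panobinostat value in the libraries numbered 3.

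All 3 phosphatase genes rose. DUSP5, a nuclear phosphatase for ERK, stood at 24.7, 23.6 and 25.3 CPM in vehicle libraries 1, 2 and 3 and at 160, 153 and 160 CPM in panobinostat libraries 1, 2 and 3. The lowest treated library lay far above the highest vehicle library. Its log2 fold change of 2.69 ± 0.05, a 6.43-fold rise, was the largest in size of the 10 genes (edgeR adjusted p = 6.37e-18). DUSP4, a nuclear phosphatase that acts on ERK and other MAP kinases, stood at 339, 341 and 329 CPM and then at 851, 840 and 883 CPM. Every treated library exceeded every vehicle library. DUSP4 rose 2.55-fold, a log2 change of 1.35 ± 0.04 (edgeR adjusted p = 8.95e-16). DUSP6, the cytoplasmic ERK phosphatase, stood at 229, 237 and 238 CPM and then at 418, 406 and 398 CPM. Its groups were again apart. DUSP6 rose 1.74-fold, a log2 change of 0.80 ± 0.04 (edgeR adjusted p = 1.16e-12). In GENCODE release 29 an antisense transcript, AC024909.2, shares 1875 exon bases with DUSP6. It has no row of its own in the table, and no label or header says whether strand was used in counting. The count of DUSP6 could therefore include its reads.

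The Sprouty genes split. SPRY4, an inhibitor of receptor and RAS signalling, stood at 802, 766 and 752 CPM in vehicle libraries 1, 2 and 3 and at 158, 157 and 167 CPM in panobinostat libraries 1, 2 and 3. The treated libraries were all far below the vehicle libraries. SPRY4 fell, with a log2 change of -2.27 ± 0.04 (edgeR adjusted p = 7.29e-18), the only fall of at least 2-fold among the 10 genes. SPRY2, a Sprouty protein that also binds the ubiquitin ligase CBL, stood at 274, 278 and 284 CPM and then at 173, 166 and 167 CPM. Its groups did not overlap either. SPRY2 fell, with a log2 change of -0.73 ± 0.04 (edgeR adjusted p = 5.36e-12). SPRY1, the least abundant of the 3 per length, stood at 19.5, 21.9 and 19.8 CPM and then at 41.1, 39.5 and 41.3 CPM. The treated values lay above the vehicle values in every library. SPRY1 rose 1.99-fold, a log2 change of 0.996 ± 0.06 (edgeR adjusted p = 5.56e-11).

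Of the SPRED genes, which act on RAS through neurofibromin, 1 rose. SPRED2 stood at 108, 104 and 99.1 CPM in vehicle libraries 1, 2 and 3 and at 149, 145 and 155 CPM in panobinostat libraries 1, 2 and 3. The groups were apart, and SPRED2 rose 1.44-fold, a log2 change of 0.53 ± 0.04 (edgeR adjusted p = 4.40e-09). SPRED1 stood at 181, 188 and 222 CPM and then at 245, 245 and 188 CPM. Its groups overlapped, since panobinostat library 3 lay at the level of vehicle library 2. The log2 difference of 0.20 ± 0.14 did not pass (edgeR adjusted p = 0.235). Its SE was the largest of the 10 genes. Without panobinostat replicate 3 the log2 fold change of SPRED1 was 0.31 and passed (edgeR adjusted p = 0.000372), and without both libraries numbered 3 it was 0.40 and passed (edgeR adjusted p = 1.20e-23). Over the alternatives run, the log2 difference of SPRED1 was 0.12 to 0.40, with an adjusted p of 1.20e-23 to 0.532.

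Both PEA3 factor genes were lower with panobinostat in the reported test, by unequal amounts. ETV5 stood at 205, 210 and 207 CPM in vehicle libraries 1, 2 and 3 and at 135, 129 and 134.5 CPM in panobinostat libraries 1, 2 and 3. The treated libraries were all below the vehicle libraries. ETV5 fell, with a log2 change of -0.64 ± 0.04 (edgeR adjusted p = 3.59e-11). ETV4 stood at 214, 206 and 196 CPM and then at 190, 190 and 198 CPM. The groups overlapped, with panobinostat library 3 above vehicle library 3. The log2 change of -0.09 ± 0.04 passed the threshold narrowly (edgeR adjusted p = 0.0413), and was 0.03 with upper quartile scaling (edgeR adjusted p = 0.54). In GENCODE release 29, ETV4 shares 68 exon bases with DHX8 on the opposite strand, whose level was 160 CPM before and 192 CPM after treatment, and ETV5 shares 164 exon bases with DGKG on the same strand, at 6.97 and 6.32 CPM.

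**Figure D2:**
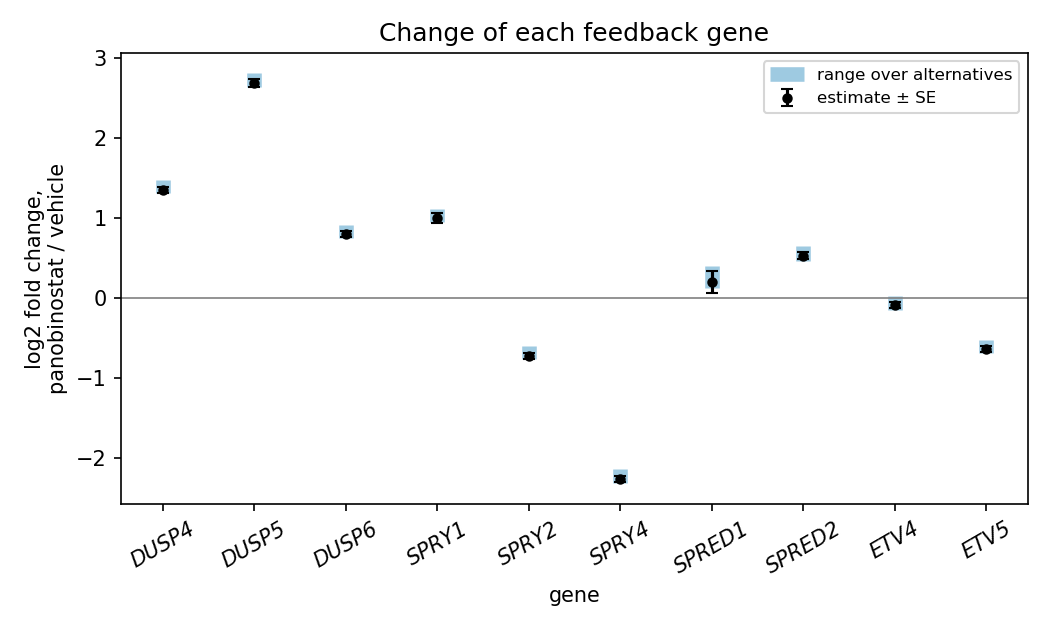
Log2 fold change, panobinostat over vehicle, of each feedback gene (point) with its SE (bar), and the range over the alternative analyses (blue). DUSP5 at 2.69 and SPRY4 at -2.27 mark the ends, and the range crosses 0 for ETV4 alone.

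Levels of different genes were compared per length, as CPM per kilobase of merged exons in GENCODE release 29. The annotation behind the counts is not stated, and a transcript shorter than the merged exons is understated. In vehicle the order was SPRY4 (118 ± 3.89), SPRY2 (91.7 ± 1.70), ETV4 (57.0 ± 2.50), DUSP6 (50.6 ± 0.962), DUSP4 (46.4 ± 0.877), ETV5 (35.8 ± 0.443), SPRED1 (23.9 ± 2.63), SPRED2 (20.1 ± 0.865), DUSP5 (9.37 ± 0.324) and SPRY1 (5.15 ± 0.334), each a mean level in CPM per kilobase ± SD over n = 3. No neighbours in that order had overlapping libraries. With panobinostat the order on the same scale was DUSP4 (118 ± 3.08), DUSP6 (87.9 ± 2.08), DUSP5 (60.3 ± 1.72), SPRY2 (55.5 ± 1.20), ETV4 (53.4 ± 1.26), SPRED2 (28.99 ± 0.993), SPRED1 (27.4 ± 3.95), SPRY4 (24.5 ± 0.881), ETV5 (22.9 ± 0.535) and SPRY1 (10.3 ± 0.245). SPRY2 and ETV4 overlapped there, and SPRED1 overlapped SPRED2, SPRY4 and ETV5. On this scale the first place passed from a Sprouty gene to a phosphatase gene, and the 3 phosphatase genes took the first 3 places. The place of DUSP5 depended on the lengths used. In CPM without length, its panobinostat mean of 158 lay below those of SPRED1 (226), ETV4 (193), SPRY2 (169) and SPRY4 (161).

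Summed per length within each family, the phosphatase genes stood at 106, 107 and 106 CPM per kilobase in vehicle libraries 1, 2 and 3 and at 269, 262 and 269 CPM per kilobase in panobinostat libraries 1, 2 and 3. That total was 2.51 times as high with treatment. The Sprouty total stood at 217, 214 and 213 and then at 91.3, 88.5 and 90.8 CPM per kilobase, 0.420 times the vehicle level. The SPRED total went from a mean of 44.0 ± 1.84 to 56.4 ± 3.08 CPM per kilobase and the ETV total from 92.7 ± 2.44 to 76.3 ± 1.62 (SD, n = 3). The groups did not overlap for any of the 4 totals, which are given as levels with no test. Of all single genes tested, 83.4% did not overlap either, and the SPRED and ETV totals each hold a gene that did (SPRED1 and ETV4). Over 11 alternatives the log2 ratio of group means was 1.32 to 1.45 for the phosphatase total and -1.26 to -1.13 for the Sprouty total. It was 0.33 to 0.48 for the SPRED total and -0.32 to -0.16 for the ETV total. Within the phosphatase total the share of DUSP5 went from 8.81% ± 0.345 to 22.6% ± 0.303, that of DUSP6 from 47.6% ± 0.704 to 33.0% ± 0.896, and that of DUSP4 from 43.6% ± 0.819 to 44.4% ± 0.810. Within the Sprouty total SPRY4 held 54.9% ± 1.252 in vehicle and 27.1% ± 0.869 with panobinostat, SPRY2 42.7% ± 1.20 and 61.5% ± 0.935, and SPRY1 2.40% ± 0.168 and 11.4% ± 0.101. SPRY2, although it fell, thus came to hold the largest share of Sprouty RNA per length.

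**Figure D3:**
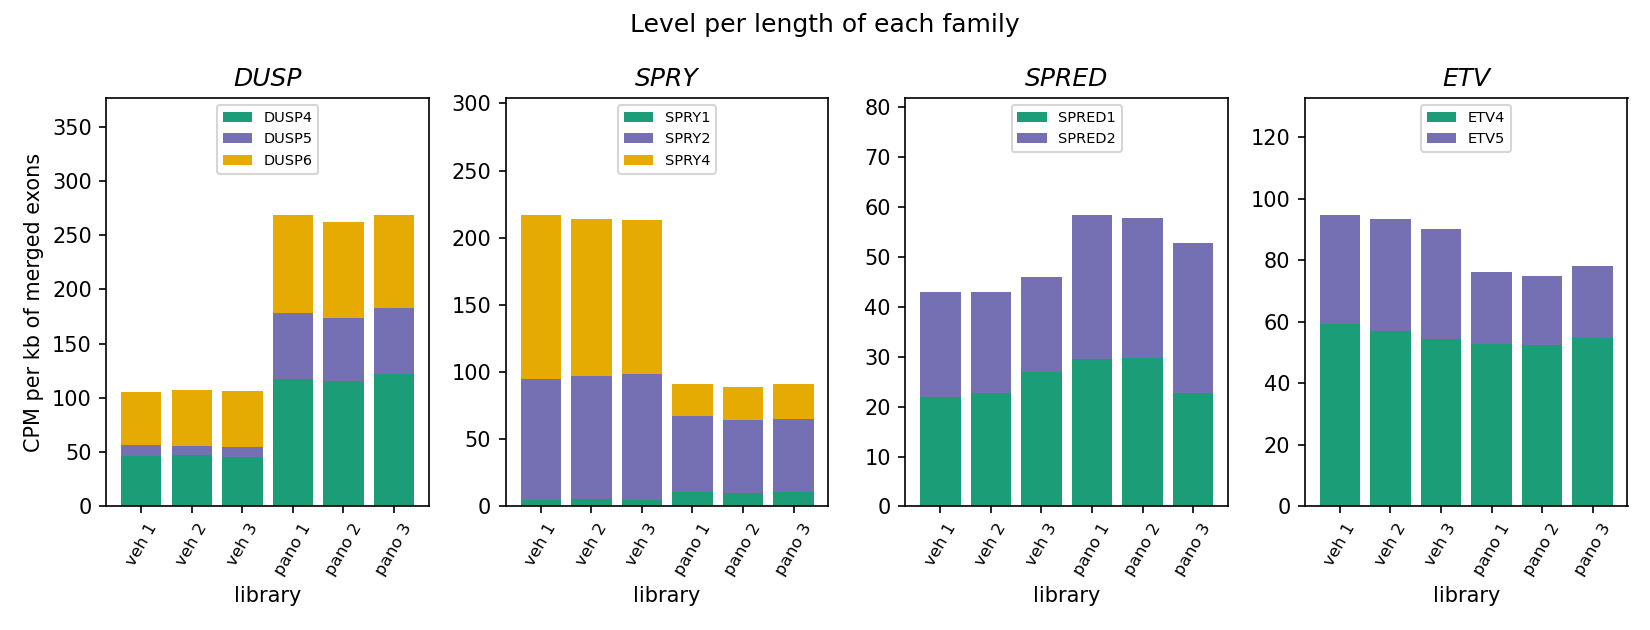
Level per length (CPM per kilobase of merged exons, linear axis from 0) of each gene, stacked within its family, in the 3 vehicle (veh) and 3 panobinostat (pano) libraries; each panel has its own axis. The DUSP stack is 2.51 times as high with panobinostat and the SPRY stack 0.420 times, with SPRY4 giving way to SPRY2 as the largest part.

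Whether relatives changed by different amounts was tested on ratios of counts within a library, which do not depend on the scaling, for 6 pairs. With 3 libraries against 3, the smallest p that a two-sided exact permutation test can give is 0.10, so no ratio could pass 0.05. The ratio of DUSP5 to DUSP6 counts was 0.107, 0.0997 and 0.106 in vehicle and 0.384, 0.375 and 0.403 with panobinostat. It was higher in each treated library than in each vehicle library, 3.71-fold on average (exact permutation p = 0.1). The ratio of DUSP4 to DUSP6 was 1.48, 1.44 and 1.39 and then 2.04, 2.07 and 2.22, a 1.47-fold difference with no overlap (exact permutation p = 0.1). The ratio of SPRY4 to SPRY2 was 2.93, 2.76 and 2.65 in vehicle and 0.914, 0.945 and 1.003 with panobinostat. The log2 ratio differed by -1.54 and the groups were apart (exact permutation p = 0.1). That of SPRY1 to SPRY2 was 0.0712, 0.0788 and 0.0696 and then 0.238, 0.238 and 0.247, 3.30-fold higher with no overlap (exact permutation p = 0.1). ETV4 to ETV5 went from 1.04, 0.978 and 0.949 to 1.41, 1.47 and 1.47, 1.47-fold higher with no overlap (exact permutation p = 0.1). SPRED1 to SPRED2 was 1.68, 1.82 and 2.24 in vehicle and 1.64, 1.70 and 1.22 with panobinostat. The groups overlapped, with a log2 difference of -0.34 (exact permutation p = 0.2) that was -0.07 without both libraries numbered 3. Adjusted over the 6 pairs by the Benjamini-Hochberg method, the p-values were 0.12 and 0.2.

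**Figure D4:**
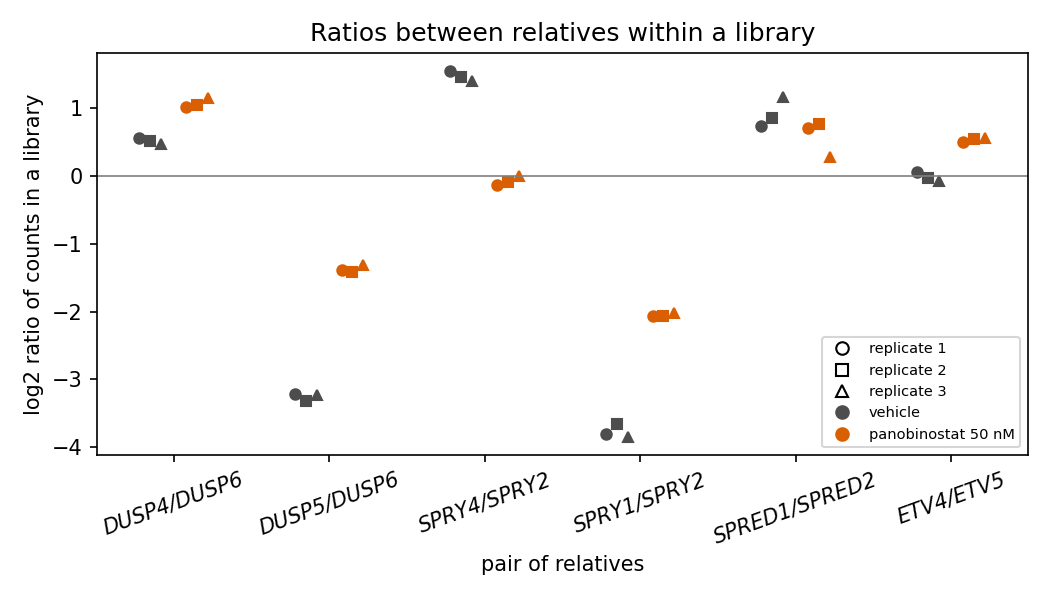
Log2 ratio of the counts of paired relatives in each library, vehicle in grey and panobinostat in orange, with a symbol for each replicate number. The groups are apart for 5 of the 6 pairs; for SPRED1/SPRED2 they overlap.

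Of 7 other MAP kinase phosphatase genes, 6 were tested, of which 2 rose and 4 fell, with a median log2 change of -0.25. The background over all genes tested is 41.8% higher and 41.0% lower, for this list and those below. DUSP1, an early-response nuclear phosphatase, rose from 9.65 ± 0.989 to 16.4 ± 0.120 CPM, and DUSP7, a cytoplasmic ERK phosphatase, from 31.9 ± 2.33 to 42.9 ± 0.897 CPM (SD, n = 3). DUSP9, the third of the cytoplasmic ERK phosphatases with DUSP6 and DUSP7, fell from 9.42 ± 0.904 to 4.38 ± 0.263 CPM, and DUSP16, which acts on JNK and p38, from 21.7 ± 0.297 to 17.2 ± 0.645 CPM. DUSP10, another phosphatase of JNK and p38, fell, with a log2 change of -0.16 ± 0.05. It no longer passed under upper quartile scaling (-0.04) or under a filter of 5 CPM in 3 libraries (-0.07). DUSP2, named after its values were seen, fell from 1.97 ± 0.274 to 0.943 ± 0.0883 CPM. DUSP8, with 15 counts in all vehicle libraries and 34 in all panobinostat libraries, was not tested. Under the 5 CPM filter, where DUSP2 was not tested, 2 of these genes rose and 2 fell. Among the remaining relatives, SPRED3 rose 1.15-fold from 32.5 ± 0.843 CPM. ETV1, the other PEA3 factor gene, rose from 141 ± 9.86 to 221 ± 13.0 CPM, whereas ETV5 fell. SPRY3 had 2 counts in 1 vehicle library and 0 in the other 5.

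Of 20 other genes known to follow ERK activity, all tested, 8 rose and 10 fell, with a median log2 change of -0.13. Over all genes tested the shares were 41.8% and 41.0%, so a split in both directions is near the background. FOSL1, an AP-1 subunit, fell from 136 ± 8.89 to 39.6 ± 3.58 CPM. LIF, a cytokine gene, and EGR3, an early-response factor gene, fell too, and are named without values because each shares exon bases with another gene in GENCODE release 29. The cyclin gene CCND1, the ephrin receptor genes EPHA2 and EPHA4, and PHLDA1 are often scored together with DUSP4, DUSP6, SPRY2, SPRY4, ETV4 and ETV5 as ERK output, and were named after their values were seen. CCND1 fell from 591 ± 12.7 to 215 ± 9.91 CPM, EPHA2 from 94.6 ± 8.46 to 49.4 ± 2.96 CPM and EPHA4 from 12.6 ± 0.720 to 7.73 ± 0.504 CPM. PHLDA1 (1124 ± 57.4 and 1167 ± 77.8 CPM) and FOS (8.49 ± 1.03 and 9.41 ± 1.20 CPM), the latter also named after its values were seen, did not pass. PHLDA1 passed as higher under upper quartile scaling, under the 5 CPM filter, without panobinostat replicate 3 and without both libraries numbered 3. FOS passed as higher under upper quartile scaling, without vehicle replicate 3 and without panobinostat replicate 2. EGR2, an early-response factor, rose from 1.47 ± 0.141 to 9.72 ± 0.360 CPM. HBEGF and AREG, which encode ligands of the EGF receptor, rose. HBEGF went from 3.55 ± 0.252 to 12.8 ± 0.978 CPM, and AREG from 2, 2 and 0 counts in the vehicle libraries to 476, 523 and 440 counts with panobinostat.

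In the cascade itself, from receptor adaptors to ERK, 7 of 19 genes rose and 8 fell, with a median log2 change of -0.09. The shares over all genes tested were 41.8% and 41.0%. SOS2, an exchange factor for RAS, fell from 43.1 ± 1.31 to 21.95 ± 0.496 CPM and GAB1, a docking protein, from 16.6 ± 2.01 to 10.8 ± 0.579 CPM. The scaffold gene KSR1 and the adaptor gene SHC1 rose, and are named without values because each shares exon bases with another gene. The 4 that did not pass were named after their values were seen: BRAF, the mutated kinase of the line, stood at 32.5 ± 0.778 and 30.5 ± 0.564 CPM, ARAF at 64.8 ± 2.30 and 64.0 ± 3.06 CPM, HRAS at 21.9 ± 1.24 and 20.3 ± 1.13 CPM, and FRS2 at 51.5 ± 4.05 and 52.6 ± 1.92 CPM. The signs of these differences changed with the analysis. Without both libraries numbered 3, BRAF, ARAF and HRAS passed as lower and FRS2 as higher. BRAF and HRAS passed as lower with no filter on low counts as well, HRAS also without vehicle replicate 3 and without panobinostat replicate 3, and FRS2 passed as higher under upper quartile scaling.

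Of 10 feedback inhibitors outside the 4 families, 4 rose and 5 fell, against 41.8% and 41.0% of all genes tested. Their median log2 change was -0.155. RGS2, a regulator of G protein signalling, rose 5.03-fold to 99.4 ± 1.82 CPM. IL17RD, an inhibitor of FGF receptor signalling, rose 2.72-fold to 22.6 ± 0.0195 CPM, and CBLB, a ubiquitin ligase named after its values were seen, 2.43-fold to 57.1 ± 1.72 CPM. ERRFI1, the gene of an EGF receptor inhibitor, rose too, and shares exon bases with an antisense gene. RASA2, a GTPase activator of RAS, fell from 27.4 ± 1.53 to 15.4 ± 0.801 CPM. RASA1, a relative of RASA2, and PEBP1, the gene of an inhibitor of RAF kinases, fell too and share exon bases with other genes. LRIG1 and NF1, the gene of the neurofibromin that SPRED proteins bind, were named after their values were seen. LRIG1 fell from 11.5 ± 0.551 to 8.75 ± 0.536 CPM and NF1 from 296 ± 5.32 to 233 ± 4.38 CPM. CBL, named likewise, stood at 192 ± 6.66 and 197 ± 7.29 CPM and did not pass, but passed as higher under upper quartile scaling and under the 5 CPM filter.

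Of 9 known partners of these genes and their proteins, 5 rose and 3 fell, against 41.8% and 41.0% of all genes tested. Their median log2 change was 0.17. CIC, the repressor of the PEA3 genes, rose 1.74-fold to 117 ± 4.12 CPM, and ATXN1, which binds CIC, rose from 35.2 ± 1.46 to 108 ± 3.08 CPM. Of the ubiquitin ligase that degrades PEA3 factors, RFWD2 (current symbol COP1) fell from 69.8 ± 3.26 to 44.1 ± 1.66 CPM. DET1, of the same ligase, rose and ATXN1L, the relative of ATXN1, fell; both share exon bases with other genes. The call for ATXN1L was lost under upper quartile scaling, under the 5 CPM filter and without panobinostat replicate 2. Of the Sprouty partners, CAV1, a membrane scaffold, rose 2.36-fold to 280 ± 20.3 CPM. SIAH2, the gene of a ubiquitin ligase, rose 1.13-fold, and NEDD4, the gene of another, fell from 127 ± 7.20 to 92.7 ± 3.58 CPM. The kinase gene TESK1, named after its values were seen, stood at 14.1 ± 1.85 and 13.7 ± 0.266 CPM and did not pass. It passed as lower without vehicle replicate 3 and without both libraries numbered 3. CIC and SIAH2 were likewise named after their values were seen.

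**Figure D5:**
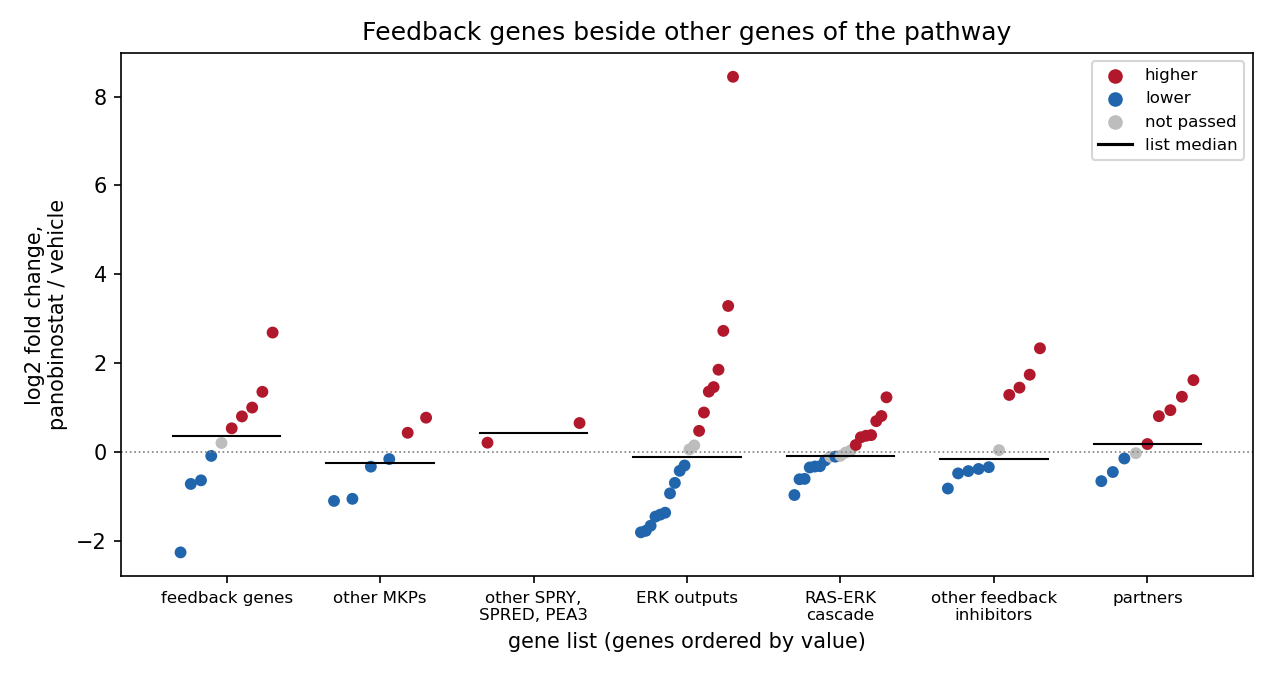
Log2 fold change, panobinostat over vehicle, of each tested gene (points, ordered by value) in the feedback genes and in 6 lists of other pathway genes; red points rose, blue fell and grey did not pass, and black lines are list medians. Each list except that of 2 SPRED and PEA3 relatives holds genes on both sides of 0, and AREG stands highest.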

How the data were processed

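The authors deposited a table of whole-number counts of reads per gene symbol, 1 column a library. Because they are whole numbers, the counts were taken as not normalized. The table's name mentions STAR; no source used here gives a version, genome build, annotation, kit or strand setting. Dose labels gave the groups, and titles the columns. The 92 spike-in rows held 0 counts and were left out. edgeR (filterByExpr, TMM scaling, robust quasi-likelihood fit on group alone) tested 15499 genes, with an adjusted p under 0.05 as the threshold. The SE is the size of the log2 fold change over the root of F. No pair of libraries was identical.

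The members and lists were chosen with earlier results of these data known. Named were all 10 members and, from each list, up to 3 called genes per direction with the largest change at 5 CPM or more in a group, and each gene of lists of 5 or fewer. Of the listed genes named by this rule, those that share exon bases with another gene in GENCODE release 29 are named without values, save the counts of CDH1. For members the overlap stands beside the value. Other genes are marked as named after their values were seen, and their overlaps are not given. Some genes that the rule takes are not reported here. Levels per length use merged exons of that release.

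Alternatives changed the scaling (RLE, upper quartile, none beyond library size), the filter (none, or 5 CPM in 3 libraries), or the tool (limma-voom, or DESeq2, which also brings its own size factors), added a replicate block, left out each library, or for ratios added 1 count. Leaving out both libraries numbered 3, and the family totals, were added after the data were seen. Counts for panobinostat against vehicle were also simulated, with 14459 genes tested and 200 genes changed. There edgeR found 70% of genes changed 1.25-fold, 92% of those changed 1.5-fold and 100% of those changed 2-fold. Of its calls, 7.2% were unchanged genes. In the data 82.8% of genes passed, a far larger part than was changed in the simulation, so these rates need not hold there. R 4.3.3, edgeR 4.0.16, limma 3.58.1, DESeq2 1.42.0, Python 3.11.15, scipy 1.17.1 and matplotlib 3.10.9 were used.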

Additional observations from a re-analysis of the deposited data

How the results depend on the processing

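In each of 15 alternative analyses, 8 of the 10 feedback genes kept their direction and their side of the threshold (DUSP4, DUSP5, DUSP6, SPRY1, SPRY2, SPRY4, SPRED2 and ETV5), and the 6 ratios kept their direction in each of theirs. The log2 fold change of ETV4 (-0.0932 as reported) was -0.0753 with RLE scaling, -0.0777 with library size alone, -0.0754 with DESeq2 (which uses the same kind of size factors as RLE) and -0.0925 with a replicate block, none of which passed. It turned to 0.0013 with the 5 CPM filter and 0.027 with upper quartile scaling. Leaving out 1 library gave -0.1431 to -0.0786, and the call was lost when that library was number 1 of vehicle, or number 1 or 2 of panobinostat. The log2 fold change of SPRED1 was 0.1244 to 0.3096 in those fits, and passed without panobinostat replicate 3 (0.3096) and without both libraries numbered 3 (0.4014). Upper quartile scaling moved the median of all genes by 0.12 on the log2 scale, with 57.3% of calls higher against 50.5% as reported, and sizes of change are relative to that choice. With the 5 CPM filter 2 of the other phosphatase genes fell, since DUSP2 was not tested and DUSP10 did not pass. Some differences that had not passed changed sign. With upper quartile scaling the log2 fold change of HRAS was 0.0061, the log2 fold change of ARAF 0.101, the log2 fold change of BRAF 0.0295 and the log2 fold change of TESK1 0.0886. With the 5 CPM filter ARAF was at 0.0753, BRAF at 0.0040 and TESK1 at 0.0629. With no filter the log2 fold change of FRS2 was -0.013 and the log2 fold change of CBL -0.0070. Leaving out 1 library gave ranges of -0.0665 to 0.0098 for ARAF, -0.0373 to 0.0763 for FRS2, -0.0031 to 0.0641 for CBL and -0.1547 to 0.0187 for TESK1. The causes were not tested. Replicate numbers were given in accession order, and the labels do not say whether equal numbers mark paired samples. Deviations of same-numbered libraries correlated over genes at -0.0776, -0.0576 and -0.141, and no library correlated best with its own number. With 3 libraries per group, whose deviations sum to 0 within a group, these values cannot decide whether samples were paired. The replicate block changed no call of a feedback gene but that of ETV4.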

Other observations

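Genes were also ranked over the libraries of each group. Of 15499 genes tested, 2948 (19.0%) were highest in library 3 among the vehicle libraries and lowest in library 3 among the panobinostat libraries, and 3507 (22.6%) were lowest and highest there. Of the feedback genes, DUSP6 and SPRED1 belonged to the first set and DUSP4, SPRY4, SPRED2 and ETV4 to the second. These are ranks only, and can rest on small gaps, as for DUSP6 at 237 CPM in vehicle library 2 and 238 CPM in vehicle library 3. ETV1 and CAV1 were singled out after their values were seen. ETV1 stood at 134, 136 and 152 CPM in vehicle libraries 1, 2 and 3 and at 229, 228 and 206 CPM in panobinostat libraries 1, 2 and 3. CAV1 stood at 116, 117 and 123 CPM and then at 292, 291 and 256 CPM. For both genes the rise was smaller between the libraries numbered 3 than between those numbered 1 or 2, and the groups did not overlap. The labels give no batch or date for the libraries.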
